A study of Mus musculus with 31 samples.

Results

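The genes described here encode the subunits of the mitochondrial respiratory chain and of ATP synthase. They were chosen by symbol: Nduf genes of complex I, Sdh genes of complex II, Uqcr genes of complex III, Cox4 to Cox8 genes of complex IV, Atp5 genes of complex V, and the mitochondrial genes named mt-Nd, mt-Co, mt-Atp and mt-Cytb. In all, 103 of the 48592 gene symbols that every count table shares met this rule, 90 of them nuclear and 13 mitochondrial. Complexes were assigned by symbol alone, so that Ndufa4, for instance, counts with complex I whatever complex its product joins. By this rule the nuclear members comprise 40 of complex I, 4 of complex II, 8 of complex III, 19 of complex IV and 19 of complex V. Of the last, 2 carry a pseudogene label (Atp5l2-ps and Atp5pb-ps). Of the 103 members, 95 were tested in every comparison and 5 passed the filter on low counts in none (Cox7b2, Cox8b, Cox8c, Ndufa11b and Ndufa4l2), some of which are known as isoforms of other tissues.

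The respiratory chain passes electrons from NADH (complex I) and succinate (complex II) through complex III to oxygen at complex IV, and the proton gradient built on the way drives ATP synthase (complex V). Complexes I, III, IV and V are built from products of both genomes, while every subunit of complex II is nuclear. The mitochondrial mRNAs are cut from long transcripts made by a dedicated RNA polymerase, Polrmt, so the nuclear and the mitochondrial mRNAs of 1 complex are made by separate machineries. Resting T cells respire little and build more mitochondria when activated.

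The 31 bulk RNA-seq libraries came from C57B/6 mice with or without a conditional Vav1-Myo1f fusion allele, a model of peripheral T cell lymphoma. Vav1 relays signals of the T cell receptor by activating small GTPases, while Myo1f belongs to the myosins. The pre-lymphoma set holds CD4+ T cells in 3 groups: 2 control libraries (CD4-Cre-ERT2(WT), titled TA018 and TA019), 3 whose genotype label joins CD4-Cre-ERT2(WT) and Vav1Myo1ffl/wt;CD4CreERT2 by a slash (TA020 to TA022, called control/fusion), and 3 with the fusion genotype on both sides of the slash (TA023 to TA025, called fusion/fusion). The labels leave the meaning of the slash open. The CD4-Cre set compares CD4-Cre(WT) with CD4-CreVav1Myo1f fl/wt, whose Cre is driven by Cd4 from early T cell development, in CD4+ T cells (3 control, 4 tumor) and whole spleen (3 control, 3 tumor). The CD4-CreERT2 set compares CD4-CreERT2 (WT) with CD4-CreERT2Vav1Myo1f fl/wt, whose Cre needs tamoxifen, in CD4+ T cells (2 control, 2 tumor) and whole spleen (3 control, 3 tumor). All control groups thus carry the Cre transgene of their set by label, and ages and tamoxifen schedules are not given in the sources used here. The labels do not say whether libraries of the pre-lymphoma set came from separate animals, so p-values there measure the spread between libraries.

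Gene counts came to 12632196 to 29257595 per library in the pre-lymphoma set, 24480017 to 37568512 in the CD4-Cre set and 24772099 to 36879923 in the CD4-CreERT2 set. The mitochondrial members took 3.44% to 5.32%, 0.721% to 2.88% and 0.438% to 1.4% of the gene counts in these sets, and the nuclear members 0.608% to 0.827%, 0.951% to 1.52% and 0.865% to 1.79%. The sets were scaled separately, so levels are given within a set, as CPM, which are counts scaled to a common library size after TMM scaling. Differences between sets cannot be told apart from differences in preparation. The summed level of 7 T cell markers was 3637 to 5811 CPM in libraries labelled CD4+ and 731 to 1857 CPM in spleen. That of 10 macrophage markers was 182 to 5046 CPM in libraries labelled CD4+ and 333 to 3188 CPM in spleen. The CD4+ libraries thus also hold RNA of macrophage markers, in some of them as much as in spleen. The number VM645 is carried by a control mouse and by a tumor mouse, and the medians of the CD4-Cre tumor comparisons and the count in CD4-Cre controls are given with and without those libraries. Myo1f lay at 83.0 and 70.7 CPM in the pre-lymphoma controls and at 143 to 180 CPM in the 6 pre-lymphoma libraries, but it overlapped between controls (262 to 422 CPM) and tumors (165 to 443 CPM) in CD4-Cre CD4+ cells. Counts per gene cannot tell fusion transcripts from those of the intact genes.

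The mitochondrial mRNAs were counted very unevenly along their genome. Per kb of gene, mt-Nd1, the first protein-coding gene, had a median level of 5099 CPM in the pre-lymphoma set, mt-Co1, the catalytic subunit of complex IV, 10917 CPM, and mt-Cytb, the only mitochondrial subunit of complex III, 7013 CPM. Between mt-Co1 and mt-Nd4 lies a block of 6 neighbours, and there the medians fell to 35.0 CPM per kb for mt-Co2, 3.10 for mt-Atp8, 14.8 for mt-Atp6, 15 for mt-Co3, 2.38 for mt-Nd3 and 3.77 for mt-Nd4l, before mt-Nd4 stood at 1870 CPM per kb again. In the CD4-Cre set mt-Co2 and mt-Co3 had medians of 25.2 and 57.7 CPM per kb against 4121 for mt-Co1, and in the CD4-CreERT2 set 46.5 and 95.9 against 2242. The same 6 genes were thus low in every set.

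In 5 of these 6 genes nearly every stretch of 50 bases also stands, letter for letter, in an annotated copy on chromosome 1 of the nuclear genome (build GRCm38). The share of such stretches was 99.53% for mt-Co2 (copy Gm28661), 99.53% for mt-Atp6 (Gm10925), 99.86% for mt-Co3 (Gm28437), 97.99% for mt-Nd3 (Gm28438) and 98.79% for mt-Nd4l (Gm10222). Over annotated transcripts of all nuclear chromosomes it was 62.23% for mt-Nd4, 51.14% for mt-Co1, 8.19% for mt-Nd2 and 7.606% for mt-Nd5. It was 0 for mt-Nd1, mt-Nd6, mt-Cytb and mt-Atp8, of which mt-Atp8 was low. Only annotated transcripts were searched, so a copy of mt-Atp8 or of another gene in unannotated sequence would not be seen. The copies of mt-Co2 and mt-Atp6, the neighbours of mt-Atp8, lie at bases 24614885 to 24615565 and 24613974 to 24614651 of chromosome 1. Per the count tables, reads that align to several places were set aside and not given to a gene in the pre-lymphoma and CD4-Cre sets, where they made up 7.72% to 8.96% and 3.70% to 7.60% of all entries. In the pre-lymphoma set the 5 genes summed to 35.8 to 84.4 CPM and their copies to 34.9 to 86.4 CPM. Values of mt-Co2, mt-Atp8, mt-Atp6, mt-Co3, mt-Nd3 and mt-Nd4l are therefore uncertain, and the sum over the mitochondrial members rests on the other 7, of which mt-Co1 and mt-Nd4 also share much of their sequence with nuclear copies, with mt-Co1 alone giving 40.8% to 44.5% of it in the pre-lymphoma set, 27.9% to 38.2% in the CD4-Cre set and 28.7% to 51.1% in the CD4-CreERT2 set.

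**Figure D1:**
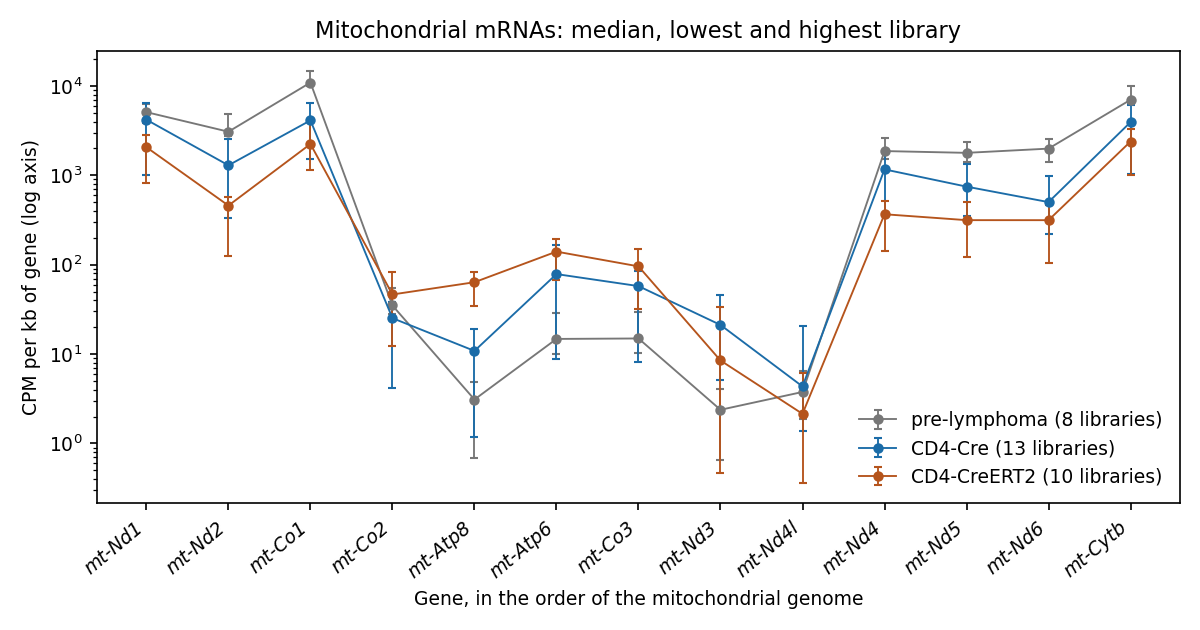
Level of each mitochondrial mRNA in CPM per kb of gene (log axis) in the order of the mitochondrial genome, 1 line per set with the median and bars from the lowest to the highest library. In each set the block from mt-Co2 to mt-Nd4l lies far below mt-Co1, which has a median of 10917 CPM per kb in the pre-lymphoma set, and mt-Nd4 returns to 1870 CPM per kb.

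In fusion/fusion CD4+ T cells, nuclear respiratory chain genes rose by small amounts in all 5 complexes, and mitochondrial ones did not pass the test. In control/fusion cells few members were called. The summed level of the nuclear members was 6182 and 6282 CPM in the controls, 6758, 6591 and 6878 CPM in control/fusion libraries and 7201, 8298 and 7732 CPM in fusion/fusion libraries. The 3 groups do not overlap, and they stand in the order control, control/fusion, fusion/fusion. The summed mitochondrial level was 34970.2 and 54246 CPM in the controls, 37156, 39923 and 50807 CPM in control/fusion and 42801, 36736 and 39303 CPM in fusion/fusion libraries. All later values lie within the span of the controls, which differ widely from each other.

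**Figure D2:**
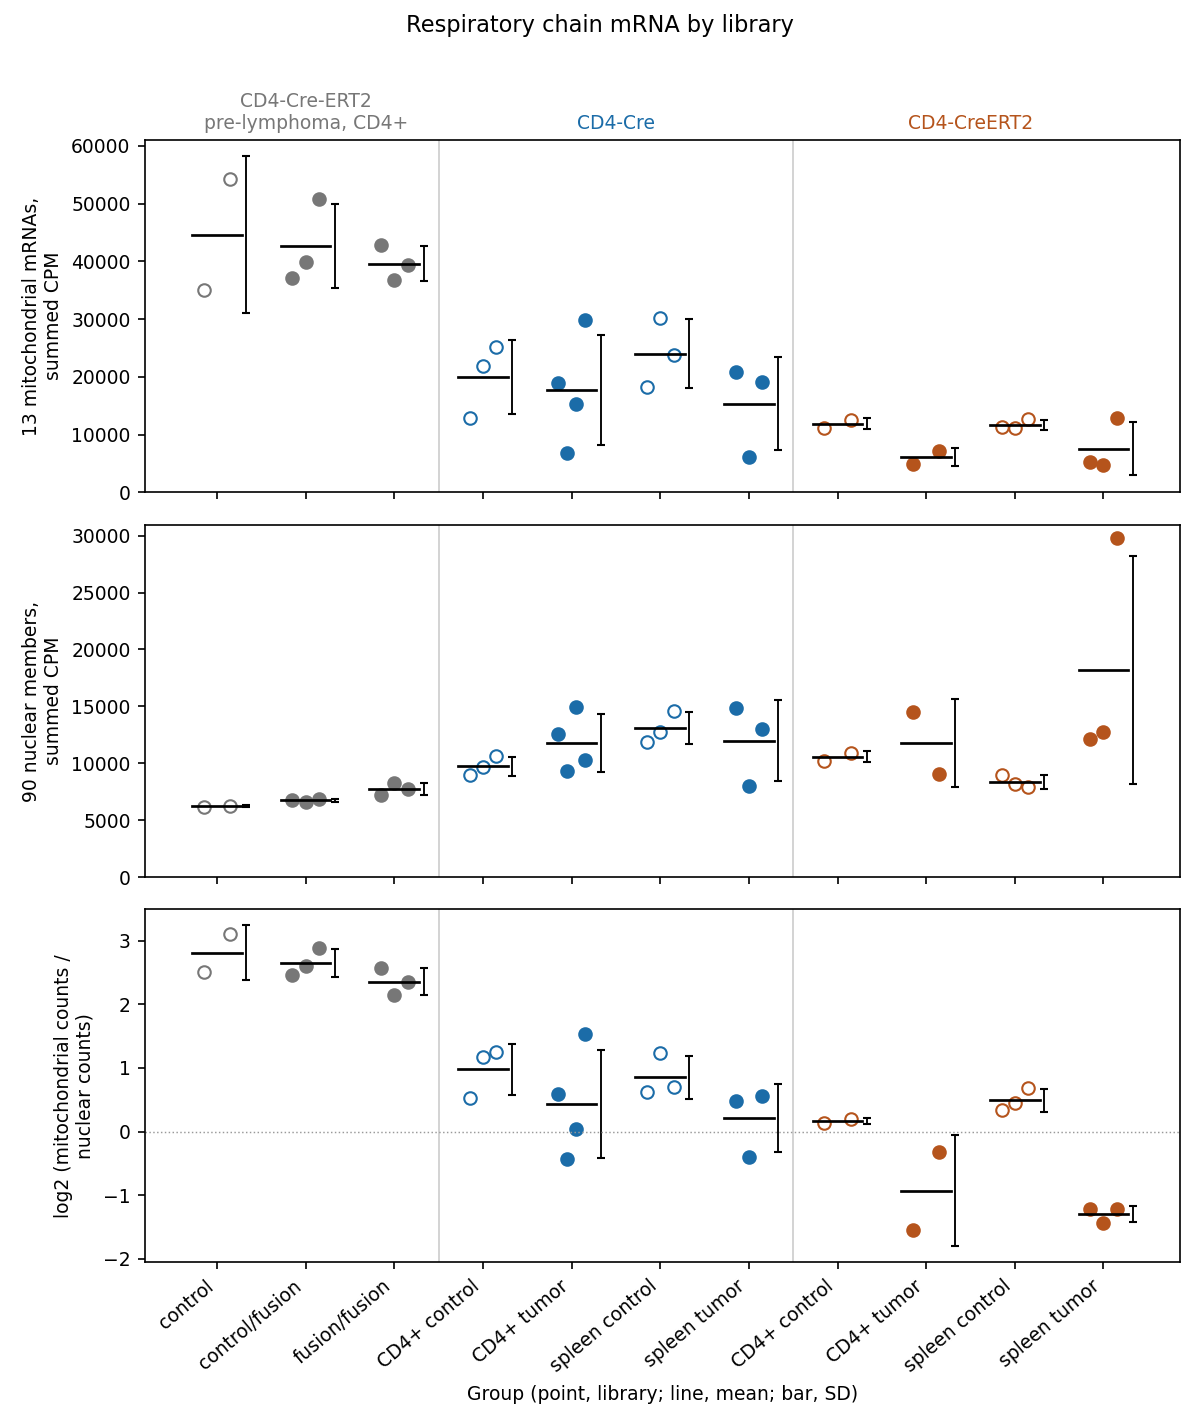
Summed level of the mitochondrial members (top, CPM), summed level of the nuclear members (middle, CPM) and log2 ratio of mitochondrial to nuclear counts (bottom) for each library, by group (open, control; filled, fusion or tumor), with the mean as a line and the SD as a bar. Nuclear sums of the pre-lymphoma groups do not overlap, and the CD4-CreERT2 spleen tumors have the widest gap in ratio to their controls.

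Against control, fusion/fusion cells had 60 of the 83 nuclear members tested higher and 1 lower, by edgeR's quasi-likelihood test at an adjusted p under 0.05. Of all 16257 genes tested, 23.8% were called higher and 22% lower. The median log2 fold change of the nuclear members was 0.39, beside −0.01 over all genes. None of the 13 mitochondrial members was called, 0 had an unadjusted p under 0.05, 0 were called by DESeq2, and their median was −0.13. Beside them, mt-Rnr1 and mt-Rnr2, the mitochondrial ribosomal RNAs, had log2 fold changes of 0.53 ± 0.21 and 0.46 ± 0.20 and were not called (adjusted p = 0.0645 and 0.0835).

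In complex I, 23 of 36 tested members rose. Ndufa1, a small subunit of the membrane arm, measured 27.8 and 30.4 CPM in the controls, 37.0, 32.4 and 35.5 CPM in control/fusion and 41.0, 47.9 and 44.6 CPM in fusion/fusion libraries. Its groups do not overlap, and its log2 fold change of fusion/fusion against control was 0.61 ± 0.09 (SE; adjusted p = 0.000481). Ndufb9, another membrane-arm subunit, rose by 0.65 ± 0.12 (adjusted p = 0.00136), and Ndufs8, which holds iron-sulfur clusters on the path of electrons to ubiquinone, by 0.56 ± 0.08 (adjusted p = 0.000319). The only member that fell was Ndufb2, at 9.92 and 11.2 CPM in the controls and 7.04, 5.71 and 6.75 CPM in fusion/fusion libraries, a change of −0.70 ± 0.15 (adjusted p = 0.00333). Ndufs1, the largest subunit, which holds iron-sulfur clusters, had a change of 0.04 ± 0.06 and was not called.

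Of the 4 genes of complex II, which oxidises succinate and belongs to the tricarboxylic acid cycle too, 3 rose. Sdhd, a membrane anchor, measured 54.5 and 51.4 CPM in the controls, 69.3, 62.6 and 63.8 CPM in control/fusion and 78.3, 82.5 and 73.4 CPM in fusion/fusion libraries. The 3 groups are again apart, and the log2 fold change was 0.56 ± 0.08 (adjusted p = 0.000245). Sdhb, the iron-sulfur subunit, rose by 0.44 ± 0.07 and Sdhc, the other anchor, by 0.31 ± 0.10. Sdha, the catalytic flavoprotein, lay at 271 and 256 CPM in the controls and 256.9, 250.9 and 242.7 CPM in fusion/fusion libraries, a change of −0.07 ± 0.06 that was not called.

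In complex III, 7 of 8 members rose. Uqcr11, a small accessory subunit, measured 25.7 and 30.6 CPM in the controls and 40.6, 49.9 and 44.7 CPM in fusion/fusion libraries, with 33 to 36.5 CPM in between for control/fusion. Its log2 fold change was 0.68 ± 0.11 (adjusted p = 0.000642). Uqcr10 and Uqcrq, 2 further small subunits, rose by 0.57 ± 0.08 and 0.53 ± 0.10. Uqcrc1, a large core subunit, was the member not called, at 0.15 ± 0.07 (adjusted p = 0.107).

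In complex IV, 12 of 16 tested members rose. Cox6b1, a subunit that faces the intermembrane space, measured 88.0 and 90.5 CPM in the controls, 118, 105 and 111 CPM in control/fusion and 124, 155 and 136 CPM in fusion/fusion libraries. No group overlaps with the next, and the log2 fold change was 0.63 ± 0.09 (adjusted p = 0.000419). Cox5a rose by 0.59 ± 0.09 and Cox4i1, the common form of subunit 4, by 0.43 ± 0.09. Cox4i2, the form of subunit 4 known from lung and from low oxygen, was near the limit of detection, at 0.25 and 0.55 CPM in the controls and 1.0 to 1.32 CPM in fusion/fusion libraries. Its change of 1.5 ± 0.52 passed in edgeR (adjusted p = 0.0363) and not in DESeq2 (adjusted p = 0.0575). Cox7a2l, which helps to join complexes III and IV into supercomplexes, had a change of −0.03 ± 0.08 (adjusted p = 0.791).

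Cox6a2 had the largest change of all members of the chain that were called. It is the heart and skeletal muscle form of subunit 6a and measured 3.57 and 3.84 CPM in the controls, 10.3, 6.98 and 7.83 CPM in control/fusion and 10.4, 13 and 9.66 CPM in fusion/fusion libraries. The controls lie below every other library, while both pre-lymphoma groups overlap. The log2 fold change was 1.57 ± 0.21 (adjusted p = 0.000204) in fusion/fusion and 1.17 ± 0.21 (adjusted p = 0.00415) in control/fusion cells. Of 6 striated muscle markers only 1 passed the filter on low counts and was not called, 4 of the 6 were at 0 in both controls, and the 6 summed to 1.11 to 3.41 CPM in the 8 libraries. Siglech, a marker of plasmacytoid dendritic cells, lay at 21.6 and 9.68 CPM in the controls, 70.5 to 95.4 CPM in fusion/fusion libraries and 48.7 to 79.7 CPM in control/fusion, so it too is lowest in the controls. Dendritic cell markers (5 genes) summed to 66.2 to 92.1 CPM in the controls and to 164 to 226 CPM in the pre-lymphoma libraries, and their part in the change of Cox6a2 was not tested.

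In complex V, 15 of 19 members rose. Atp5g3, which encodes a copy of subunit c of the rotating ring, measured 108 and 111 CPM in the controls, 130 to 133 CPM with control/fusion and 155, 175 and 156 CPM in fusion/fusion cells, a change of 0.56 ± 0.07 (adjusted p = 0.000146). The 2 other genes for the same ring protein, Atp5g1 and Atp5g2, rose by 0.51 ± 0.09 and 0.48 ± 0.11. Atp5k, subunit e of the membrane part, rose by 0.63 ± 0.09. The catalytic genes rose less: Atp5b, the β subunit, by 0.20 ± 0.07 (adjusted p = 0.0374) and Atp5a1, the α subunit, by 0.29 ± 0.07 (adjusted p = 0.00519).

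The mitochondrial mRNAs moved in no common direction. mt-Co1 measured 15570.2 and 22536 CPM in the controls, 16129, 17605 and 21704 CPM in control/fusion and 18620.4, 15374 and 16035 CPM in fusion/fusion libraries. The controls are both the second lowest and the highest of the 8 libraries. Its change in fusion/fusion was −0.19 ± 0.17 (adjusted p = 0.381), that of mt-Cytb −0.21 ± 0.18, that of mt-Nd1 0.07 ± 0.19 and that of mt-Atp6 −0.12 ± 0.39. The ratio of mitochondrial to nuclear counts, which needs no scaling between libraries, was lower by 0.45 on the log2 scale in fusion/fusion than in control, with a pooled SD of 0.30 and groups that overlap, and no test was run on it. Leaving out 1 library at a time moved this difference between −0.76 and −0.15.

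Control/fusion cells were compared with the same 2 control libraries, so both comparisons share them. Of the 83 nuclear members 8 were called higher and 0 lower, where 11.6% of all genes tested were called higher and 8.7% lower, so the share of members called higher, 9.64%, is near that of all genes. Those called were Ndufs8 (0.39 ± 0.08), Sdhd (0.30 ± 0.08, adjusted p = 0.0205), Cox6a2, Cox6b1 (0.32 ± 0.09), Cox5a (0.33 ± 0.09), Atp5k (0.35 ± 0.09), Atp5g3 (0.27 ± 0.07) and Atp5c1, the γ stalk of ATP synthase (0.24 ± 0.07). The median log2 fold change was 0.13 for the nuclear members and 0.00 for the 13 mitochondrial members, none of which was called by edgeR or DESeq2 or had an unadjusted p under 0.05. The count of 8 became 1 without TA019, 2 without TA018 and 4 without TA020 or TA022, and was at most 11.

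Fusion/fusion differed from control/fusion directly as well. Of the 83 nuclear members 38 were called higher and 0 lower, while 9.59% of all genes were called higher and 9.3% lower, and the median was 0.25. By complex, 12 of 36 were higher in complex I, 2 of 4 in complex II, 3 of 8 in complex III, 8 of 16 in complex IV and 13 of 19 in complex V. Atp5j, coupling factor 6 of ATP synthase, rose by 0.35 ± 0.07 (adjusted p = 0.00617), Uqcr10 by 0.36 ± 0.07 (adjusted p = 0.00943), Ndufc1 by 0.48 ± 0.12 and Cox8a by 0.34 ± 0.08. Of the 13 mitochondrial members 0 were called by edgeR or DESeq2 and 1 had an unadjusted p under 0.05, with a median of −0.13. The count of 38 nuclear members rests on single libraries. It was 3 without TA024 (813 of all 16715 genes higher), 5 without TA021 (958 of 16814) and 6 without TA025 (994 of 16777). It was 13 without TA020 (1223 of 16769) and 18 without TA022 (1024 of 15278). Without TA024, TA021 or TA025 the share of members called was thus near that over all genes. Against control, the count of 60 nuclear members in fusion/fusion cells ranged from 38 (without TA018, where 3 mitochondrial members were also called) to 66.

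**Figure D3:**
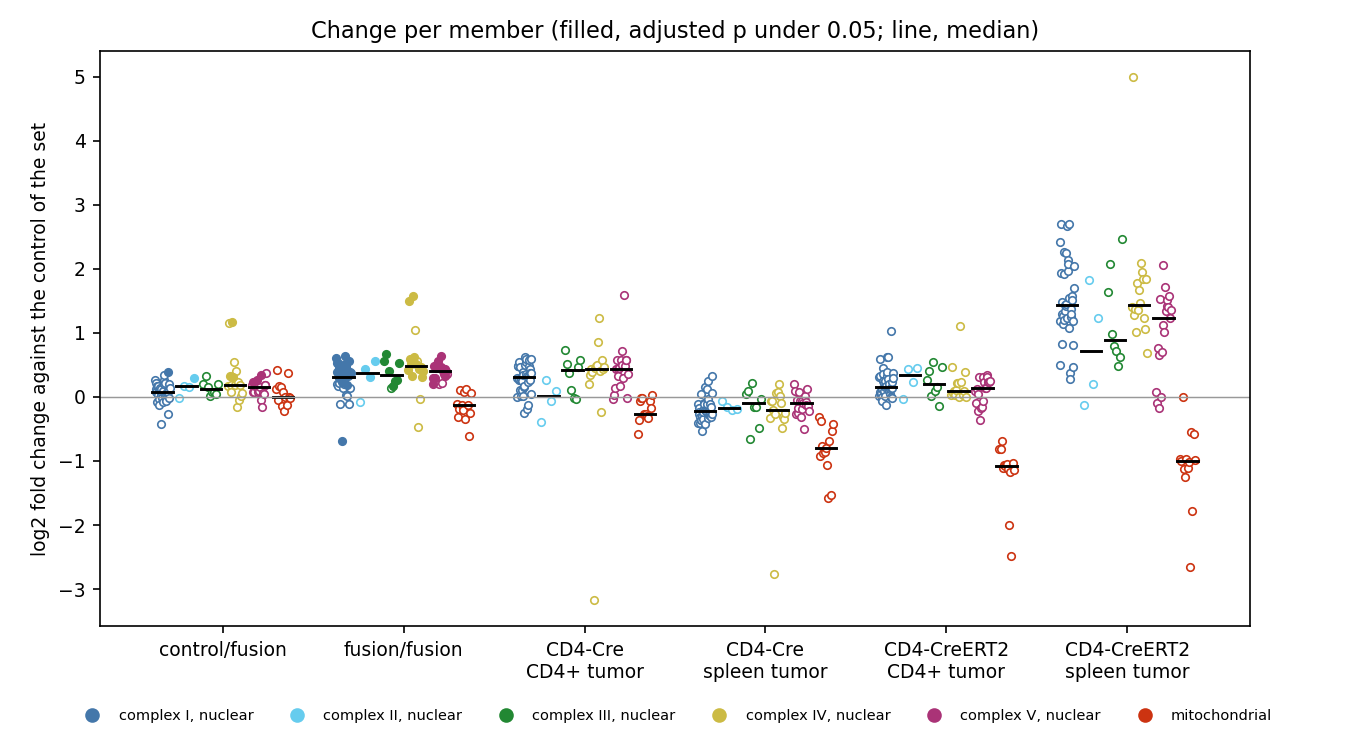
Log2 fold change of each member against the control of its set, by complex and comparison, filled where the adjusted p was under 0.05, with the median as a line. In fusion/fusion cells the nuclear members of every complex lie mostly above 0, with 60 filled above 0 and 1 below, while the mitochondrial members straddle 0.

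Other genes of mitochondria did not all follow the chain in fusion/fusion cells. The counts below stand against 23.8% of all genes higher and 22% lower. Of 77 mitochondrial ribosomal protein genes 28 were higher (36.4%) and 4 lower, with Mrps6 (0.94 ± 0.16) and Mrpl52 (0.75 ± 0.12) the largest. Of 17 tricarboxylic acid cycle genes 4 were higher (23.5%, the share over all genes) and 1 lower. Those higher included Idh3a, a catalytic subunit of isocitrate dehydrogenase (0.49 ± 0.07), and Fh1, fumarase (0.41 ± 0.08). Of 42 assembly factors 9 were higher (21.4%, near the share over all genes) and 2 lower. Ndufaf7, a methyltransferase needed for complex I, rose by 0.56 ± 0.10, and Cox17, a copper chaperone of complex IV, fell by 0.55 on the log2 scale (SE 0.09). Of 18 electron carriers and other entries to the chain 6 were higher (33.3%) and 3 lower, and Coq7, of ubiquinone synthesis, rose by 0.68 ± 0.17. Of 7 genes of defence against peroxides and of uncoupling 5 were higher (71.4%) and 0 lower, among them Gpx1 (0.67 ± 0.11) and Ucp2 (0.58 ± 0.08).

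Polrmt and some genes of mitochondrial DNA and of the control of respiration fell. Of 16 genes for replication and transcription of mitochondrial DNA 0 were higher and 6 lower (37.5%, against 22% of all genes). Polrmt, the mitochondrial RNA polymerase, measured 59.9 and 59.6 CPM in the controls, 45.5, 45.3 and 44.6 CPM in control/fusion and 37.2, 40.4 and 42.3 CPM in fusion/fusion libraries. Its groups do not overlap, and the change was −0.58 ± 0.07 (adjusted p = 0.000119), while Polg2, the accessory subunit of the mitochondrial DNA polymerase, changed by −0.74 ± 0.12. Of 9 transcriptional regulators of respiration 0 were higher and 3 lower (33.3%). Ppargc1b, a coactivator of genes of oxidative metabolism, measured 12.5 and 12.5 CPM in the controls and 6.75, 6.34 and 6.99 CPM in fusion/fusion libraries, a change of −0.90 ± 0.12, and the related Pprc1 changed by −0.71 ± 0.07.

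Markers of dividing cells moved with the nuclear members. All 6 were higher in both pre-lymphoma groups, with a median of 1.17 for control/fusion cells and 2.33 for fusion/fusion cells, and they summed to 126 to 197, 319 to 380 and 636 to 675 CPM in the 3 groups. Erythroid markers (8 of 8 higher in both groups) summed to 46.9 to 108 CPM in the controls, 288 to 333 CPM in fusion/fusion libraries and 113 to 499 CPM in control/fusion. Plasma cell markers (4 of 4 higher in fusion/fusion) summed to 414 to 641 CPM in the controls and 1244 to 1435 CPM in fusion/fusion. The share of entries that matched no gene was 9.40% and 10.8% in the controls, 6.14% to 7.09% in fusion/fusion libraries and 7.40% to 8.28% in control/fusion. Genes were also sorted into 4 classes by the length of their exons. From the shortest to the longest, the median of fusion/fusion against control was 0.09, 0.05, −0.02 and −0.13 over all genes. Among nuclear members (55, 18, 8 and 2) it was 0.40, 0.40, 0.20 and 0.13. The part of these differences in the result was not tested, and in bulk samples a change in the mix of cells cannot be told apart from a change of RNA per cell.

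Short stretches before the start of 5 members that rose in fusion/fusion cells are printed because respiratory chain promoters are known for motifs of NRF1, ETS factors and YY1. Each is a run of 80 bases within the 250 bases before the start site given by RefSeq (GRCm38.p6), around the motif nearest to that start, read 5′ to 3′ on the strand of the gene, for the member of each complex with the largest change among those with a motif there. Capitals mark the letters searched for, TGCGCA (NRF1) and CCGGAAG (ETS) and their reverse complements.
Ndufb7 (complex I, chr8:83566678-83566757, plus strand): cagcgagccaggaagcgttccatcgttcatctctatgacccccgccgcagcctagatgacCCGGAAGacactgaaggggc
Sdhd (complex II, chr9:50603853-50603932, minus strand): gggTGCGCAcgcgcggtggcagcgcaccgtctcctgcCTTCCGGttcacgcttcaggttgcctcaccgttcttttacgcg
Uqcr11 (complex III, chr10:80406845-80406924, minus strand): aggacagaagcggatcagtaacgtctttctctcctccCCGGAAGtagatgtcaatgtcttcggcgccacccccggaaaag
Cox6b1 (complex IV, chr7:30626115-30626194, minus strand): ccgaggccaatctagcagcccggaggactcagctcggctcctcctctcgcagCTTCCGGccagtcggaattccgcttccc
Atp5g2 (complex V, chr15:102671048-102671127, minus strand): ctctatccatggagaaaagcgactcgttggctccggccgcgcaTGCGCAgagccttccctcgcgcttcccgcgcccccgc

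Promoter windows of 300 bases (250 before to 50 after the start) were found for 68 of the 90 nuclear members. Of these, 52.94% held at least 1 of the motifs of NRF1 (TGCGCA), ETS factors (CCGGAAG) and YY1 (AAGATGG) on either strand, against 21% of 27025 promoters of the same length. By motif, TGCGCA was in 26.47% of the members and 8.059% of all promoters, CCGGAAG in 23.53% and 9.121%, and AAGATGG in 14.71% and 6.475%. Among members called higher in fusion/fusion cells 25 of 48 held a motif (52.08%), and among those not called higher 11 of 18 (61.11%). These shares are a description of letters in the windows and of no binding.

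In CD4+ T cells of CD4-Cre tumors no member was called, where 0.157% of 17841 genes tested were called in either direction. The log2 fold change was above 0 for 73 of 84 nuclear members, with a median of 0.37 beside 0.06 over all genes. Of these members 20 had an unadjusted p under 0.05, and the share of all genes at that threshold is not given here. Of the 13 mitochondrial members 1 was above 0, with a median of −0.26 and 0 at an unadjusted p under 0.05. From the shortest to the longest class of exon length, the median over all genes was 0.19, 0.04, −0.02 and −0.02. Among nuclear members (56, 18, 8 and 2) it was 0.40, 0.31, 0.07 and 0.05, and the part of length was not tested. Summed nuclear levels were 8942, 9667 and 10631 CPM in the controls and 12572, 9302, 14941 and 10272 CPM in the tumors, which overlap. Without the VM645 libraries the medians were 0.26 and 0.02. The CD4+ library of the tumor VM98 had 34546 genes with a count, against 21702 to 24573 in the other CD4-Cre libraries. Without it, edgeR called 250 higher and 329 lower of all 17371 genes. Leaving out 1 library at a time gave 0 nuclear members higher and 0 to 1 lower.

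Cox6a2 was the member with the lowest unadjusted p in these cells. It measured 10.5, 8.46 and 12.2 CPM in the controls and 0.60, 1.75, 1.65 and 0.68 CPM in the tumors, so the groups are far apart. The log2 fold change was −3.18 ± 0.49, with an adjusted p of 0.0646 in the edgeR fit of these groups, 0.0222 with all 4 groups of the set in the fit, 0.00107 without the filter and 8.48e-09 in DESeq2 (611 higher and 567 lower of all 39578 genes). Without the VM645 libraries it was −3.26 ± 0.60 (adjusted p = 0.209). Siglech went with it, at 133 to 153 CPM in the controls and 3.81 to 39.2 CPM in the tumors, and the 5 dendritic cell markers had a median of −2.97, summing to 242 to 406 CPM in the controls and 15.3 to 92.1 CPM in the tumors. Macrophage markers summed to 2524 to 4372 CPM in the controls and 182 to 2011 CPM in the tumors, and CD8 T cell markers to 36.3 to 40.9 CPM and 8.68 to 24.7 CPM. T cell markers went the other way, at 3637 to 4167 CPM and 4435 to 5811 CPM. The part of these cells in the difference of Cox6a2 and in the medians of the members was not tested. Sdha, which was not called in the pre-lymphoma groups, had a log2 fold change of −0.39 ± 0.15 (adjusted p = 0.281), and mt-Co1, at 3854 to 7667 CPM in the controls and 2529 to 10024 CPM in the tumors, −0.06 ± 0.47.

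In whole spleen of the CD4-Cre tumors again no member was called, and 0% of 17050 genes were. All 13 mitochondrial members had a log2 fold change below 0 (median −0.79), 1 of them at an unadjusted p under 0.05, and of the nuclear members 18 of 84 were above 0 (median −0.18), with 3 at an unadjusted p under 0.05. The mitochondrial sum was 18210.4, 30103 and 23776 CPM in the controls and 20887, 6090.1 and 19143 CPM in the tumors. The tumor VM58 stands low in this sum and in its CD4+ cells (6870.1 CPM), and without its spleen library the medians were −0.34 and 0.07. Without the spleen of VM645 they were −0.77 and −0.08. The log2 ratio of mitochondrial to nuclear counts was 0.62, 1.24 and 0.70 in the controls and 0.49, −0.40 and 0.56 in the tumors, a mean difference of −0.64 with groups that do not overlap but come close, and it was −0.33 without the spleen of VM58 and −0.71 without that of VM645. Cox6a2 measured 9.49, 3.26 and 3.85 CPM in the controls and 0.99, 0.77 and 0.68 CPM in the tumors, a change of −2.76 ± 0.56 (adjusted p = 0.207 in edgeR and 0.000543 in DESeq2, which called 1 nuclear and 0 mitochondrial members, and 325 higher and 272 lower of all 30856 genes). Without VM645 it was −2.96 ± 0.64 (adjusted p = 0.608).

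In the CD4-CreERT2 set the ratio of mitochondrial to nuclear counts was lower in every tumor than in every control of the same tissue. In CD4+ cells (2 against 2 libraries) no member was called, and 0% of 17341 genes were. All 13 mitochondrial members were below 0, with a median of −1.07 and 7 at an unadjusted p under 0.05, while 70 of 84 nuclear members were above 0 with a median of 0.15 and 0 at an unadjusted p under 0.05. mt-Cytb measured 3291 and 3750.1 CPM in the controls and 1163 and 2149 CPM in the tumors, a change of −1.07 ± 0.41. mt-Nd1 measured 2456 and 2734 CPM against 946 and 1542 CPM (−1.05 ± 0.36), and mt-Co1 3483 and 3600.5 CPM against 2120.0 and 2261 CPM (−0.68 ± 0.29). In all 3 the tumors lie below both controls. Without the tumor VM236 the fit called 24 nuclear members higher and 13 mitochondrial ones, where 1902 of all 18263 genes were higher and 1352 lower, with medians of 0.44 and −1.59. That value rests on VM231 as the lone tumor, whose spread is then taken from the controls. A term for sex, in which VM231 alone differs from the other 3 libraries, left VM236 as the lone tumor against the controls and gave medians of −0.24 and −0.72. It called no member, where 164 of all 17341 genes were higher and 76 lower.

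In whole spleen the CD4-CreERT2 tumors had nuclear and mitochondrial members on opposite sides of 0. No member was called by edgeR, and 0% of 16163 genes were. The nuclear members were above 0 in 82 of 85 cases, with a median of 1.36 beside −0.02 over all genes, and 54 had an unadjusted p under 0.05. The share of all genes at that unadjusted threshold is not given here. The mitochondrial members were below 0 in all 13 cases with a median of −0.99, and for 5 the unadjusted p was under 0.05. In DESeq2, 14 nuclear members were higher and 1 mitochondrial member was called, where 1359 of all 28802 genes were higher and 402 lower. The log2 ratio of mitochondrial to nuclear counts was 0.33, 0.45 and 0.69 in the controls and −1.22, −1.43 and −1.21 in the tumors. The groups are apart by −1.78 in the mean, with a pooled SD of 0.16, and leaving out any 1 library kept the difference between −1.86 and −1.68. The same ratio was 0.13 and 0.20 in CD4+ controls and −1.54 and −0.32 in CD4+ tumors of this set.

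The size of the nuclear difference in spleen depended on the tumor VM294. Nuclear members summed to 8998, 8197 and 7879 CPM in the controls and to 12125, 12714 and 29779 CPM in the tumors, the last in VM294, and all 3 tumors lie above every control. Mitochondrial members summed to 11319, 11179 and 12721 CPM in the controls and to 5202, 4704 and 12833 CPM in the tumors. VM294 thus lies with the controls in this scaled sum, but not without scaling. As a share of gene counts, mitochondrial members took 1.19%, 1.3% and 1.4% in the controls and 0.438%, 0.454% and 0.772% in the tumors. The last is VM294, and all 3 tumors lie below every control in this share. The unscaled nuclear share was 0.949%, 0.951% and 0.865% in the controls and 1.79% in VM294. Nuclear shares of tumors and controls did not overlap, with a mean log2 difference of 0.508. Ndufa1 measured 105 to 130 CPM in the controls and 159, 176 and 1438 CPM in the tumors (2.43 ± 0.92, adjusted p = 0.214), and Uqcrq 59.6 to 68.5 CPM against 131, 137 and 748 CPM (2.48 ± 0.77). Without VM294 the median of the nuclear members was 0.63 and that of the mitochondrial members −1.34. With a term for sex the median of the nuclear members was 0.63 as well. All 3 controls are female, and VM231 and VM294 are male, so that fit sets VM236 as the lone tumor against the controls. Sex and tumor status cannot be told apart for the male tumors. VM294 also had the fewest genes with a count, 18368, and plasma cell markers at 67692 CPM.

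In this comparison several genes of large catalytic subunits had values near 0. Sdha had a log2 fold change of −0.13 ± 0.39, Atp5b −0.10 ± 0.59, Atp5a1 0.08 ± 0.46 and Ndufs1 0.37 ± 0.32. Sdhb stood at 1.83 ± 0.65, Cox4i1 at 1.41 ± 0.56 and Ndufb8, an accessory subunit of complex I, at 2.07 ± 0.69. The length of a gene's exons moves with this: over all genes tested the median was 0.39, 0.05, −0.17 and −0.36 from the shortest to the longest of 4 classes of exon length, and among nuclear members it was 1.42, 1.19, 1.23 and 0.86. The part of length in the difference was not tested.

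The isoforms of complex IV had their own values in CD4-CreERT2 spleen. Cox4i2 was at 0.03, 0 and 0.07 CPM in the controls and at 1.51, 0.53 and 1.67 CPM in the tumors, with a fitted change of 5.0 ± 1.01 (adjusted p = 0.122 in edgeR, 0.047 without the filter and 0.000687 in DESeq2). Since the controls are at or near 0, the size of that change depends on the fit. Cox6a2 measured 1.37, 1.58 and 2.1 CPM in the controls and 4.61, 4.89 and 7.55 CPM in the tumors, a change of 1.79 ± 0.49 (adjusted p = 0.155 in edgeR and 0.0111 in DESeq2). Here Cox6a2 was higher in the tumors, while it was lower in both tissues of the CD4-Cre tumors.

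Markers of other cells differ greatly between these spleens. The 7 neutrophil markers summed to 343 to 792 CPM in the controls and to 100976, 2367 and 55413 CPM in the tumors VM231, VM236 and VM294, with all 7 above 0 and a median of 7.0. Erythroid markers summed to 6.18 to 14.0 CPM in the controls and 152 to 997 CPM in the tumors, macrophage markers to 333 to 555 CPM and 1348 to 2656 CPM, and markers of dividing cells to 151 to 198 CPM and 175 to 1789 CPM. B cell markers summed to 8082 to 8449 CPM in the controls and 809.9 to 5328 CPM in the tumors. In CD4+ cells neutrophil markers were at 40.2 to 58.6 CPM in the controls and 5800.1 and 73.9 CPM in the tumors. Macrophage markers were at 224 to 563 CPM and 1274 to 4611 CPM there, B cell markers at 2466 to 2609 CPM and 192 to 1210.1 CPM, and erythroid markers at 6.01 to 9.46 CPM and 73.8 to 81.4 CPM, so each of these 3 lists separates both tumors from both controls. The part of these cells in the values of the chain was not tested.

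Direct contrasts between tumor effects gave few calls. Whether the effect differed between CD4+ cells and spleen was tested in both sets, and edgeR called 0% of genes in either. Neither edgeR nor DESeq2 called a member, while DESeq2 called 15 genes higher and 16 lower of 41134 in the CD4-Cre set. The median contrast of the nuclear members (CD4+ minus spleen) was 0.57 in the CD4-Cre set, with 13 at an unadjusted p under 0.05, and −1.19 in the CD4-CreERT2 set, with 1. Between the spleen effects of both sets (CD4-CreERT2 minus CD4-Cre), 0.0613% of genes and 0 members were called. The median was 1.51 for nuclear and −0.32 for mitochondrial members, and 53 nuclear and 0 mitochondrial members had an unadjusted p under 0.05. For these contrasts too, the share of all genes at that unadjusted threshold is not given. DESeq2 called 5 nuclear members there (730 higher and 293 lower of all 31754 genes), and leaving out VM231 in spleen gave 19 (758 and 629 of 18773). Cox6a2 had the contrast with the lowest p, 4.5 ± 0.75, at an adjusted p of 0.0566 in edgeR, 0.00679 without the filter and 7.47e-07 in DESeq2.

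The normal difference between CD4+ T cells and whole spleen was opposite in the control mice of both sets. In CD4-Cre(WT) mice 55 of 84 nuclear members were lower in CD4+ cells and 0 higher, where 12.8% of all genes were called lower and 12.9% higher, and the median log2 difference (CD4+ minus spleen) was −0.56. In CD4-CreERT2 (WT) mice 45 of 84 were higher in CD4+ cells and 0 lower, where 10.3% of all genes were called higher and 11.3% lower, and the median was 0.45. The mitochondrial members had medians of −0.32 and 0.01, with 0 of 13 called in both sets and 1 and 0 at an unadjusted p under 0.05, and DESeq2 called 1 in the CD4-Cre set. With the mouse as a block, since both tissues come from the same animals, 2 mitochondrial members passed in the CD4-Cre set. In that fit 66 nuclear members were lower, where 2992 of all 17426 genes were lower and 2885 higher. Cox6a2 was called higher in CD4+ cells there (1.05 ± 0.33, adjusted p = 0.0468).

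By complex, the members lower in CD4+ cells of CD4-Cre controls were 25 of 38 in complex I, 2 of 4 in complex II, 6 of 8 in complex III, 11 of 15 in complex IV and 11 of 19 in complex V. Those higher in CD4+ cells of CD4-CreERT2 controls were 20 of 38, 0 of 4, 5 of 8, 11 of 15 and 9 of 19. Ndufa1 measured 118, 155 and 195 CPM in CD4+ cells and 279, 275 and 357 CPM in spleen of the CD4-Cre controls (−0.97 ± 0.20, adjusted p = 0.0117), and 165 and 186 CPM in CD4+ cells against 130, 111 and 105 CPM in spleen of the CD4-CreERT2 controls (0.63 ± 0.13, adjusted p = 0.0104). Neither set has overlap between its tissues for this gene. Cox6a1, the common form of subunit 6a, differed by −0.73 ± 0.13 and 0.44 ± 0.12, and Atp5g3 by −0.42 ± 0.15 (adjusted p = 0.0734) and 0.62 ± 0.12 (adjusted p = 0.0082). Sdha did not pass in either set, at 0.10 ± 0.12 and 0.06 ± 0.13, nor did Ndufs1, at 0.21 ± 0.09 and 0.05 ± 0.15.

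The difference between the sets was tested as an interaction, a contrast chosen after seeing these values and fitted only without the mouse as a block. It called 67 of 84 nuclear members higher (CD4-CreERT2 minus CD4-Cre) and 0 lower, where 6.39% of all genes were called higher and 6.65% lower, and the median was 0.97. Ndufa1 had a contrast of 1.58 ± 0.26 (adjusted p = 0.00649), Ndufb6 1.39 ± 0.21, Uqcrb 1.3 ± 0.22, Cox6a1 1.16 ± 0.17 and Cox8a 1.10 ± 0.16 (adjusted p = 0.00593). Of the 13 mitochondrial members 0 were called or had an unadjusted p under 0.05, DESeq2 called 0, and their median was 0.38. Sdha (−0.06 ± 0.16), Ndufs1 (−0.18 ± 0.17), Atp5a1 (0.15 ± 0.15) and Uqcrc1 (0.02 ± 0.25) were among the members not called.

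**Figure D4:**
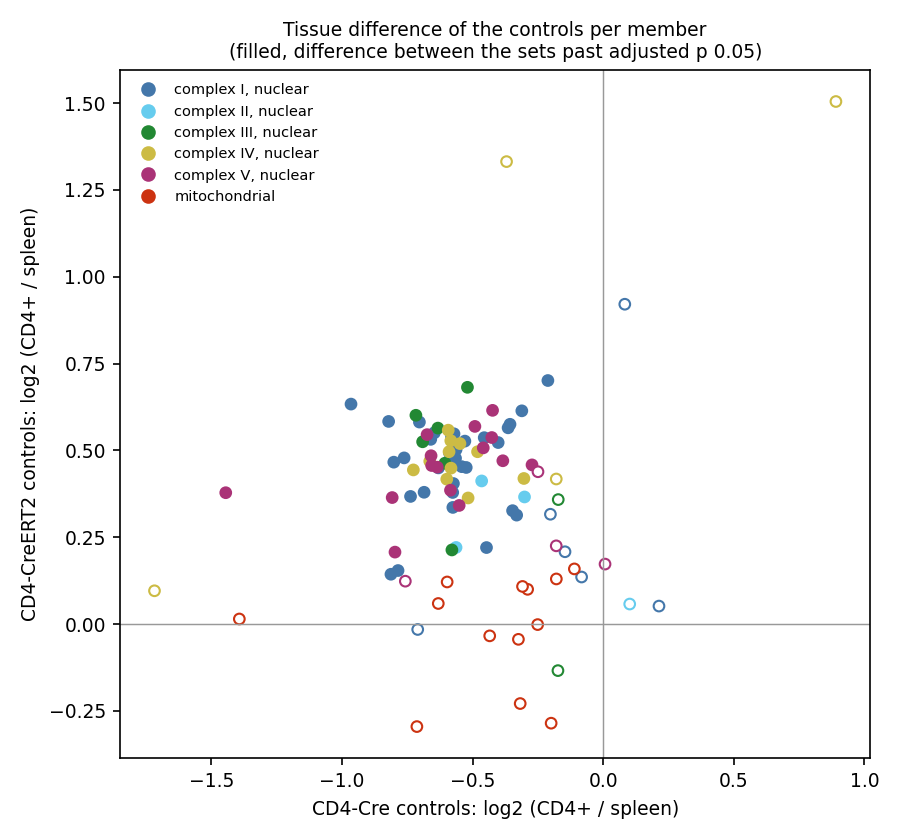
Log2 difference between CD4+ T cells and spleen of control mice for each member, in the CD4-Cre set (x axis) and the CD4-CreERT2 set (y axis), coloured by complex for nuclear members and in red for mitochondrial ones, filled where the difference between the sets passed an adjusted p of 0.05. Most nuclear members lie left of 0 and above 0 (medians −0.56 and 0.45), and 67 are filled.

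These control results depend on few mice. Without the VM645 libraries 30 nuclear members were lower in CD4-Cre controls (1501 of all 17970 genes lower). The count was 24 without the CD4+ library of VM211 (1243 of 18175) and 25 without the spleen of VM645 (1372 of 18440). It was 29 without the CD4+ library of VM216 (1323 of 18183) and 36 without its spleen (1379 of 18390). In CD4-CreERT2 controls the count of 45 became 4 without the spleen of A2 (917 of all 16713 genes higher) and 14 without the spleen of A3 (1331 of 16715). Leaving out the CD4+ library of A1 or of A3 left 1 library in that group, and the count fell there too, most without A3. The count of 67 ranged from 22 (without the CD4+ library of A3) to 68. Neutrophil markers summed to 6657 to 48085 CPM in spleens of CD4-Cre controls and to 343 to 792 CPM in those of CD4-CreERT2 controls. In the CD4+ libraries of these controls, B cell markers summed to 707 to 1096 CPM and 2466 to 2609 CPM. Macrophage markers summed to 2524 to 4372 CPM and 224 to 563 CPM there, and to 1610 to 3188 CPM and 333 to 555 CPM in the spleens. Without scaling, the share of gene counts taken by the nuclear members differed between tissues by −0.07 on the log2 scale in CD4-Cre controls, with overlap, and by 0.33 in CD4-CreERT2 controls, without overlap. The part of these differences in the opposite signs was not tested.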

How the data were processed

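The deposited files hold raw read counts per gene that the authors made from poly(A) RNA amplified with SMART-Seq v4 and sequenced on an Illumina HiSeq, per the labels' protocols. The submitters' processing notes name HISAT2 2.1.0, HTSeq 0.5.4 and the builds mm10 and GRCm38. Gene IDs of the CD4-CreERT2 tables were matched to symbols, and 48970 of 49315 had a symbol. Rows that name no gene were left out of library sizes. Fits used edgeR 4.0.16 (R 4.3.3): filterByExpr, TMM scaling, the quasi-likelihood test and Benjamini-Hochberg adjustment over all genes tested, with an adjusted p of 0.05 as threshold. Each log2 fold change has a standard error from its F statistic. Counts of members at an unadjusted p under 0.05 stand without the share over all genes at that threshold. No excess over all genes is read from them. Levels are TMM-scaled CPM. Counting intervals were not used, since reads amplified by PCR are not independent molecules. Tables were read with Python 3.11.15 and pandas 2.3.3.

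Each comparison was fitted on its own groups, and the 3 pre-lymphoma groups in 1 fit. Alternatives were DESeq2 1.42.0, DESeq2-style size factors, scaling without mitochondrial, immunoglobulin, T cell receptor and haemoglobin genes, no filter, a term for sex, all 4 groups of a set, the mouse as a block, and leaving out libraries. CD4+ and spleen libraries with the same mouse number in their titles pair by animal, and their deviations from group means correlated at 0.159 to 0.333 in the CD4-Cre set and 0.158 to 0.44 in the CD4-CreERT2 set. The ratio of mitochondrial to nuclear counts was described without a test. On simulated counts with 200 changed genes the fusion/fusion comparison against control recovered 74% of 2-fold changes. The CD4-CreERT2 tumor comparisons recovered 0% of 2-fold and 0% of 4-fold changes. Those of CD4-Cre tumors recovered 0% of 2-fold changes, and 23% (CD4+ cells) and 2% (spleen) of 4-fold changes. The tissue comparisons of controls recovered 20% (CD4-Cre) and 54% (CD4-CreERT2) of 2-fold changes.

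The members and the lists of other genes were chosen with earlier results of these data known. Named genes are the most changed called members of each complex (the most abundant where none was called), isoform genes, mt-Co1, mt-Cytb, mt-Nd1 and mt-Atp6, and the most changed called genes of each list. Other genes named were chosen after their values were seen.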

Additional observations from a re-analysis of the deposited data

Results flagged for a closer look

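The difference between CD4+ T cells and spleen of control mice differed between the CD4-CreERT2 and the CD4-Cre set in a test of that difference itself, for 67 of 84 nuclear members and 0 of 13 mitochondrial members (edgeR interaction, adjusted p under 0.05). The contrast was chosen after seeing the data. Over all genes its median was 0.43 in the shortest and −0.40 in the longest of 4 classes of exon length. The part of length was not tested. No sample stood apart by Dixon's test in CD4+ tumors of the CD4-Cre set, the only group with 4 samples. That result does not extend to library quality. In this group VM98 had the most genes with a count, 34546, and the largest share of entries that matched no gene, 17.9%.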

How the results depend on the processing

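The log2 ratio differences of control/fusion against control and of CD4-Cre controls between tissues changed sign when 1 library was left out. Without the filter on low counts the calls became 1 lower nuclear member in control/fusion against control (also 1 with DESeq2-style size factors), 2 mitochondrial members in each fusion/fusion comparison, 1 lower nuclear member in CD4-Cre CD4+ tumors, 1 higher in CD4-CreERT2 spleen tumors, 1 higher nuclear and 2 mitochondrial members in CD4-Cre controls, 3 higher nuclear members in the spleen contrast between sets and 1 mitochondrial member in the control contrast between sets. DESeq2 called 1 lower nuclear member in each CD4-Cre tumor comparison, 14 higher nuclear and 1 mitochondrial member in CD4-CreERT2 spleen tumors, 1 mitochondrial member in CD4-Cre controls and 5 nuclear members in the spleen contrast, and the fit of all 4 CD4-Cre groups called 1 lower in CD4+ tumors. Without the VM645 libraries 30 nuclear members were lower in CD4-Cre controls (1501 of all 17970 genes lower). With mean log2 CPM in place of summed counts, the ratio in CD4-CreERT2 spleen differed by −2.07. The causes were not tested.

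Leaving out 1 library at a time gave, for nuclear members called higher, 1 to 11 (0 to 1 lower) in control/fusion, 38 to 66 in fusion/fusion against control, 3 to 51 against control/fusion, 0 to 24 in CD4-CreERT2 CD4+ tumors, 0 to 1 in CD4-CreERT2 spleen tumors, 1 to 43 in CD4-CreERT2 controls, 0 to 19 in the spleen contrast and 22 to 68 in the control contrast. In CD4-Cre controls it gave 0 to 1 higher and 24 to 52 lower, and in CD4-Cre CD4+ tumors 0 to 1 lower. Calls over all genes moved as well. Those higher ranged from 813 to 1571 in fusion/fusion against control/fusion, and those lower from 1243 to 2135 in CD4-Cre controls. Mitochondrial calls ranged from 0 to 3 and 0 to 1 in both fusion/fusion comparisons and from 0 to 13 in CD4-CreERT2 CD4+ tumors. The log2 ratio differed by −0.46 to 0.15 in control/fusion, −0.76 to −0.15 and −0.40 to −0.17 in fusion/fusion, −0.91 to −0.26 and −0.81 to −0.33 in CD4-Cre CD4+ and spleen tumors, −1.71 to −0.48 and −1.86 to −1.68 in CD4-CreERT2 tumors, and −0.0034 to 0.36 and −0.40 to −0.22 in the controls.

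With the mouse as a replicate block, CD4-Cre controls had 66 lower, 1 higher and 2 mitochondrial calls (2992 lower and 2885 higher of all 17426 genes). CD4-CreERT2 controls had 48 higher (2262 of all 16951 genes). With at least 12632196 counts a library, the low isoforms (Cox4i2, Cox6a2) were less precise than the abundant members.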

Other observations

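Cox7a2l measured 262 to 305 CPM in the pre-lymphoma libraries, 63.7 to 115 CPM in the CD4-Cre libraries and 55 to 227 CPM in the CD4-CreERT2 libraries. Ndufb2 measured 5.71 to 11.2 CPM, 5.20 to 13.3 CPM and 40.2 to 205 CPM in the same order. The sets were scaled separately, differences in preparation cannot be told apart, and these differences between sets were not tested.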
